A study of Mus musculus with 8 samples.

Results

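Transcripts that mark monocytes and neutrophils were followed in microglia purified from the mouse lateral geniculate nucleus (LGN), a visual relay in the thalamus. The list held 13 monocyte markers (Ccr2, Ly6c2, Plac8, Chil3, S100a4, S100a6, Fn1, F10, Emilin2, Itga4, Vcan, Gpr141 and Anxa2) and 16 neutrophil markers (Cd177, S100a8, S100a9, Ngp, Camp, Ltf, Lcn2, Mmp8, Mmp9, Cxcr2, Retnlg, Elane, Mpo, Csf3r, Stfa1 and Il1r2). They were matched by symbol to the Ensembl identifiers of the count table. Of the 29 listed genes, 28 of the 26062 rows matched, 13 monocyte and 15 neutrophil markers, and Stfa1 was not analysed here. The mice were wild type C57BL/6J males aged 2 to 3 months, and every group shared this background. There were 2 libraries from uninjured mice, 3 from mice killed 1 day after both optic nerves had been crushed, and 3 from mice killed 3 days after. Crush cuts off retinal axons, which end in the LGN. The cells were collected on magnetic beads against CD11b, an integrin subunit that monocytes and neutrophils carry as well as microglia, so the beads do not separate the 3 cell types. Whether each library holds 1 mouse or several is not stated in the labels. The p-values therefore cover only the spread between these libraries, and that spread may be technical.

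Monocytes and neutrophils are blood leukocytes made in the bone marrow. Classical monocytes leave the marrow through the chemokine receptor Ccr2 and can enter injured tissue, where they become macrophages. Neutrophils are short-lived cells that carry antimicrobial proteins in granules, which are loaded in successive waves during maturation, and are drawn into tissue through the receptor Cxcr2. Healthy brain parenchyma holds few of either cell, and several of the genes used to mark them are also transcribed by microglia, vessel cells or glia.

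Library totals ran from 12700098 to 17994861 counts. Levels are given as CPM, TMM-scaled and depth-normalised counts (edgeR), on which a floor of 3 counts in a library equals 0.155 to 0.242 CPM. The 13 microglia markers, among them P2ry12, Tmem119 and Sall1, were at 60.5 CPM or more in every library and summed to 10590 to 18080 CPM. Choroid plexus markers summed to 527 and 5571 CPM in the uninjured pair, 1.09 to 56.7 CPM after 1 day and 631 to 3602 CPM after 3 days. Day 1 replicate 2 stood apart for the markers studied here: it held the highest level of 15 of the 28, against 16.0% of all 17390 genes tested. The sets differ, since the 15 include Ly6c2, S100a4 and Gpr141, which were too scarce to be tested. Mitochondrially encoded counts made up 22.5% and 21.3% in uninjured mice, 13.6%, 21.9% and 13.9% after 1 day, and 22.8%, 28.9% and 30.3% after 3 days. This share was thus highest at 3 days and low in 2 of the 3 libraries at 1 day, the exception being day 1 replicate 2. The part of either difference in the marker levels was not tested.

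Calls among the markers were limited to Fn1, Csf3r and S100a8. A total of 23 of the 28 passed the filter on low counts, 9 monocyte and 14 neutrophil markers. At 1 day, 1 monocyte marker was called as different from uninjured mice (Fn1, lower) and 0 neutrophil markers were, by edgeR’s quasi-likelihood test at an adjusted p under 0.05 over all genes. At an unadjusted p under 0.05 there were 2 of each class, against 2569 of all 17390 genes tested. DESeq2 called 1 neutrophil marker, S100a8, and 909 genes in all, where edgeR called 308. Over all genes tested, 0.610% were called as higher and 1.16% as lower at 1 day. At 3 days, 0 monocyte markers and 1 neutrophil marker (Csf3r, lower) were called, against 2.49% of all genes higher and 0.983% lower. Of the monocyte markers 1, Fn1, had an unadjusted p under 0.05, as did 2749 of all genes tested. DESeq2 called 0 monocyte markers there, and 1375 genes in all. Between the times, Fn1 was higher and S100a8 and Csf3r were lower at 3 days, against 5.24% of all genes called as higher and 5.75% as lower.

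**Figure D1:**
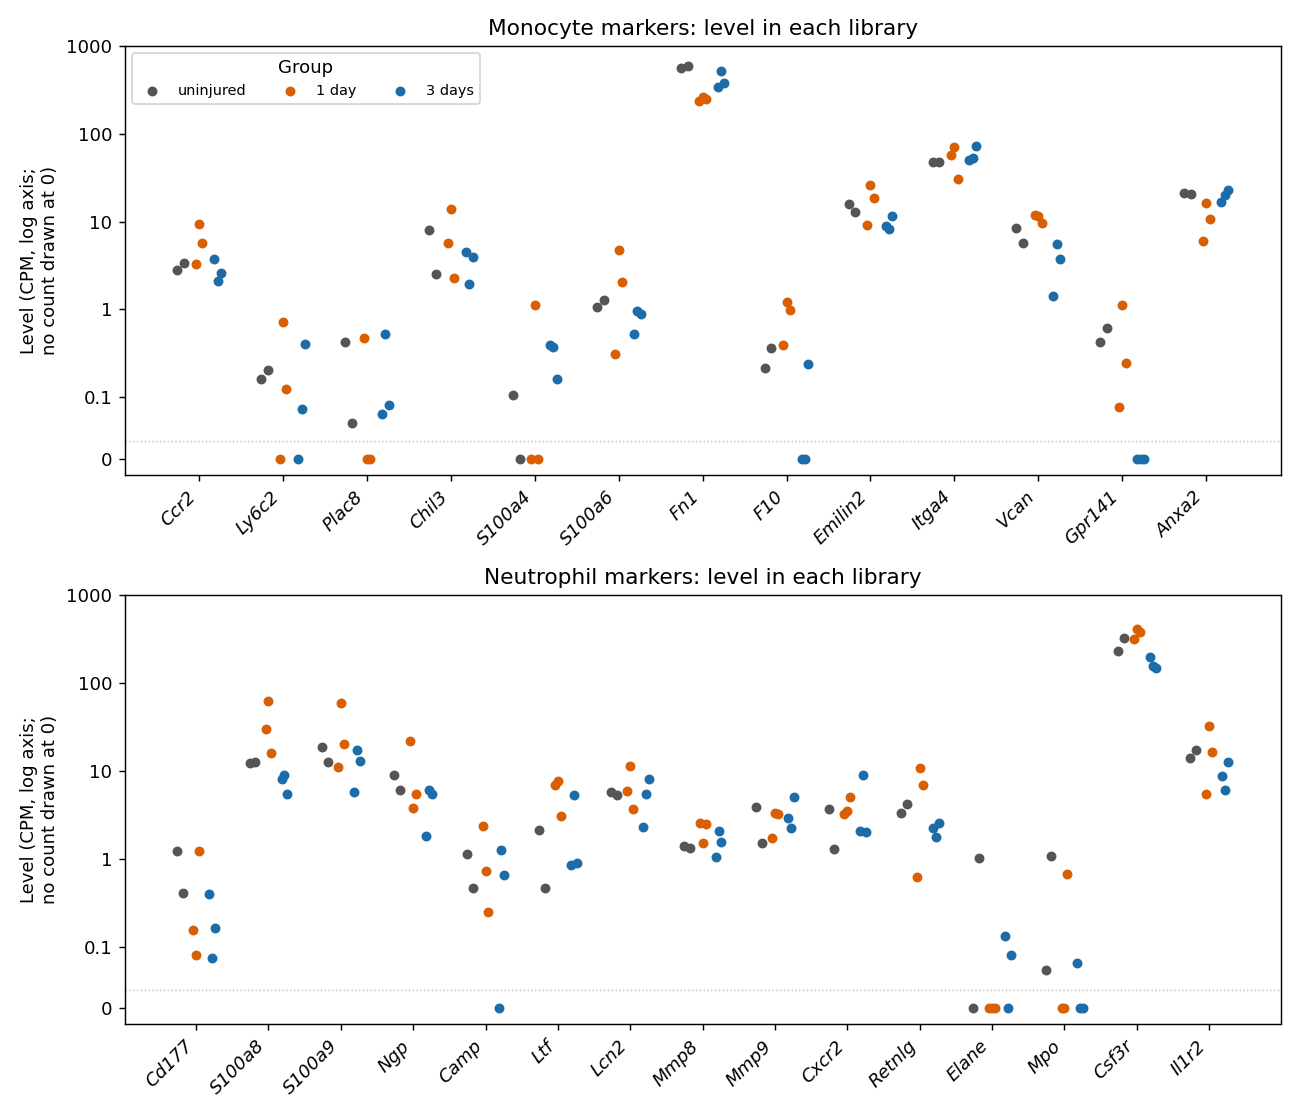
Level of each of the 28 markers in each of the 8 libraries (CPM, log axis, with libraries without a count drawn at 0), monocyte markers above and neutrophil markers below; each point is a library, coloured by group. Fn1 and Csf3r lie between 147 and 591 CPM in all libraries, while Ly6c2, Plac8 and Elane do not pass 1.03 CPM in any library.

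**Figure D2:**
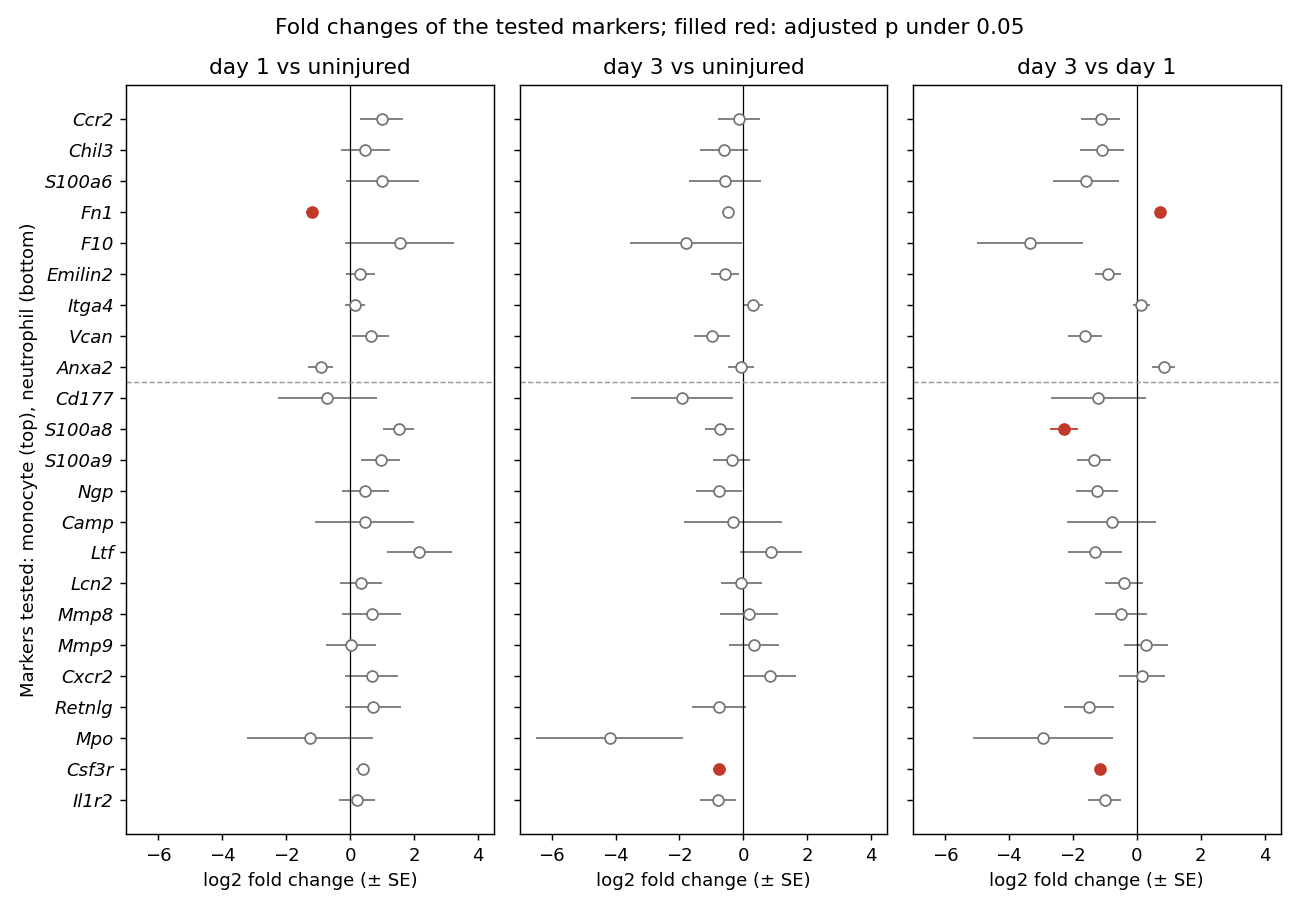
Fitted log2 fold changes (points) with their standard errors (bars) for the 23 markers tested, in 3 comparisons, each as the first group over the second; filled red points have an adjusted p under 0.05 (edgeR). Filled points are limited to Fn1, S100a8 and Csf3r, and most other markers have standard errors that reach across or near 0.

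The defining monocyte genes were scarce in every group. Ly6c2, which encodes the surface protein Ly6C of classical monocytes, had 24 counts over all 8 libraries and none in 2 of them. In the reference transcripts 14.4% of its 50-base windows also occur in other genes, chiefly Ly6c1, an endothelial gene, so part of its reads cannot be placed with certainty. Plac8 also had 24 counts, and S100a4, a calcium-binding protein of motile cells, had 29, of which 14 were in day 1 replicate 2. The annotation places 302 of the 584 exonic bases of S100a4 in another gene as well, Gm42674, which has no row in the count table. Gpr141, an orphan receptor of myeloid cells, had 8 and 12 counts in uninjured mice, 1, 14 and 4 at 1 day, and 0 in all 3 libraries at 3 days. None of these 4 passed the filter, so no test was made of them.

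Ccr2, the receptor for monocyte chemoattractant proteins, had 2.83 and 3.35 CPM without injury, 3.27, 9.39 and 5.73 CPM after 1 day, and 3.73, 2.085 and 2.58 CPM after 3 days. The highest value was in day 1 replicate 2, and the 3 groups overlapped. The difference at 1 day was 0.99 on the log2 scale (SE 0.68, edgeR adjusted p = 0.576) and that at 3 days −0.14 (SE 0.67, adjusted p = 0.961). Its ligand genes Ccl2, Ccl7 and Ccl12 were far more abundant. Ccl2 was at 108 ± 4.72 CPM in uninjured mice (SD, n = 2), 179 ± 79.1 at 1 day (n = 3) and 136 ± 13.6 at 3 days (n = 3), with no call. Ccl7 fell from 61.3 ± 4.72 CPM after 1 day to 27.6 ± 2.69 CPM after 3 days (log2 fold change −1.15, SE 0.21, edgeR adjusted p = 0.00285).

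Chil3, a chitinase-like secreted protein (Ym1) of monocytes and neutrophils, had 8.01 and 2.52 CPM in uninjured mice, 5.76, 13.96 and 2.28 CPM after 1 day, and 4.51, 1.94 and 3.95 CPM after 3 days. Libraries of the same group differed as much as the groups did, and no comparison was called (lowest adjusted p = 0.357). A share of 26.9% of its 50-base windows is also found in other genes, mainly its paralog Chil4. F10, the gene of coagulation factor X, had 0 to 1.204 CPM and no count in 2 of the 3 libraries at 3 days. Every 1 day library was above both uninjured ones, but its fold change of 1.55 on the log2 scale had an SE of 1.71 (edgeR adjusted p = 0.770). F10 passed the filter on low counts only through 1 day libraries, with 5, 15 and 16 counts there against 4 and 7 in uninjured mice.

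Fn1 encodes fibronectin, a matrix glycoprotein that inflammatory monocytes and vessel cells both make. Its level was 558 and 591 CPM in the uninjured pair, 238, 262 and 252 CPM after 1 day, and 342, 521 and 382 CPM after 3 days. The 3 groups did not overlap: every 1 day library was below every 3 day library, and those were below both uninjured ones. Fn1 fell at 1 day from 574 ± 23.6 CPM (SD, n = 2) to 251 ± 11.8 CPM (n = 3), a log2 fold change of −1.197 (SE 0.17, edgeR adjusted p = 0.00324). It was higher at 3 days than at 1 day by 0.73 (SE 0.16, adjusted p = 0.00878). The difference between 3 days and uninjured mice was −0.47 (SE 0.17, adjusted p = 0.181), and it was called (adjusted p = 0.0313) when day 3 replicate 2, the highest of its group, was left out. Fn1 made up 62.4% to 86.2% of the summed level of the monocyte markers, so the sum follows it. Without it, the other 12 markers summed to 106 and 94.6 CPM in uninjured mice, 94.9, 157 and 80.8 CPM after 1 day, and 86.4, 93.1 and 119 CPM after 3 days, and the groups overlapped.

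Endothelial markers were, like Fn1, lowest in mean at 1 day, all 10 of them. The 10 endothelial markers summed to 1393 and 1574 CPM in uninjured mice, 642 to 700 CPM after 1 day and 1092 to 1237 CPM after 3 days. At 1 day 7 of the 10 were called as lower and 0 as higher, against 1.16% and 0.610% of all genes. All 10 lay wholly below the uninjured libraries, where 15.0% of all genes did. Their median log2 fold change was −1.11, against 0.06 over all genes tested. Flt1, a receptor for vascular growth factors on endothelium, fell by 1.13 on the log2 scale (SE 0.16, edgeR adjusted p = 0.00321). The 10 mural and fibroblast markers summed to 1110 and 1239 CPM, 558 to 627 CPM and 844 to 939 CPM in the same order of groups. At 1 day 2 of them were called as lower, Rgs5 and Col1a2, and 0 as higher, against the same shares of all genes. Of the 10, 5 lay wholly below the uninjured libraries and 0 wholly above. Rgs5, a pericyte gene, gave most of this sum (999.9, 462 and 736 CPM in mean), and Acta2, Dcn and Col1a1 were lowest in mean at 3 days (39.9, 5.42 and 3.30 CPM, against 61.2, 6.95 and 5.47 CPM after 1 day). All 8 choroid plexus markers also lay wholly below the uninjured libraries at 1 day (15.0% of all genes did), and 5 of them were called. At 3 days all 8 lay wholly above the 1 day libraries (16.1% of all genes did). The part of any of these lists in the change of Fn1 was not tested. In bulk RNA, fewer cells of a type and less RNA per cell cannot be told apart, and this holds for each marker described here.

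**Figure D3:**
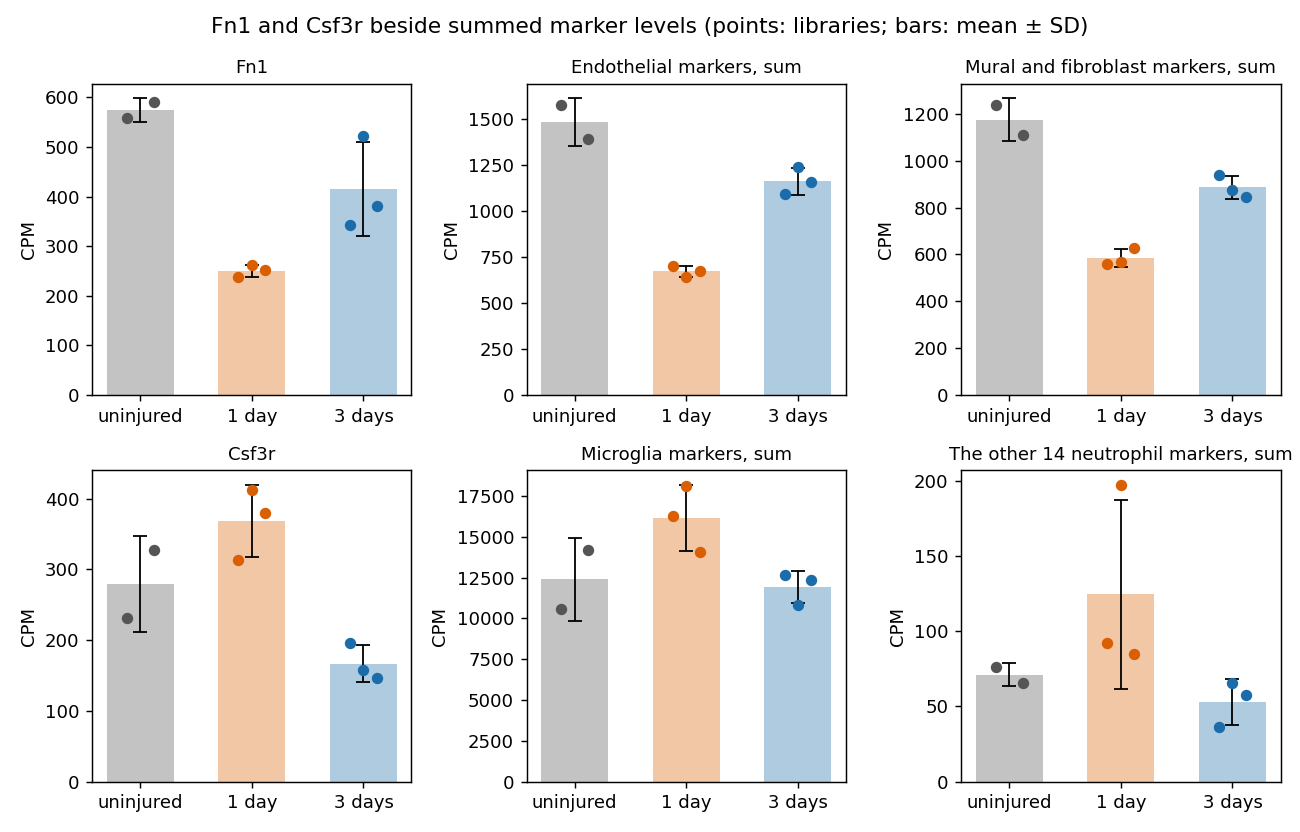
Levels of Fn1 and Csf3r and the summed levels of marker lists in each library (CPM, axes from 0); points are libraries, bars the group mean and whiskers 1 SD. Fn1 and the endothelial and mural sums are lowest at 1 day, and Csf3r and the sum of the other 14 neutrophil markers are lowest in mean at 3 days.

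Integrin subunits that bind fibronectin had other patterns. Itga4, the alpha 4 subunit with which leukocytes adhere to fibronectin and to VCAM-1, had 47.7 and 47.4 CPM in uninjured mice, 57.6, 71.3 and 30.3 CPM after 1 day and 50.3, 53.1 and 72.8 CPM after 3 days. Day 1 replicate 3 was the lowest and day 3 replicate 3 the highest; the 3 day libraries were all above the uninjured pair, and no comparison was called (lowest adjusted p = 0.729). The annotation places 1124 of its 13978 exonic bases in Cerkl on the opposite strand. Itga5, the alpha 5 subunit of the main fibronectin receptor, rose from 235 ± 38.2 CPM to 621 ± 25.4 CPM after 1 day (1.40 on the log2 scale, SE 0.15, edgeR adjusted p = 0.00113). At 3 days it was at 409 ± 8.01 CPM, still above uninjured mice (0.80, SE 0.15, adjusted p = 0.00848).

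Vcan, the gene of the proteoglycan versican, was at 8.39 and 5.72 CPM in uninjured mice, 11.8, 11.6 and 9.73 CPM after 1 day, and 1.44, 5.58 and 3.71 CPM after 3 days. All 1 day libraries lay above all others, and all 3 day libraries below all others. The difference between the times was −1.63 on the log2 scale (SE 0.53, edgeR adjusted p = 0.0619). It passed with DESeq2 (adjusted p = 0.0103) and limma-voom (adjusted p = 0.0427). Emilin2, an elastin-associated matrix protein, had 15.9 and 12.7 CPM, then 9.03, 26.1 and 18.6 CPM after 1 day, and 8.83, 8.26 and 11.6 CPM after 3 days. Its 3 day libraries were below both uninjured ones, with a log2 difference of −0.58 (SE 0.44, adjusted p = 0.606). Between the times the difference was −0.90 (SE 0.40, adjusted p = 0.168), and it was called without day 1 replicate 1, the lowest of its group (−1.22, adjusted p = 0.0453).

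Anxa2 encodes annexin A2, a membrane-binding protein that pairs with S100a10. It was at 21.2 and 20.4 CPM in uninjured mice, 6.08, 16.2 and 10.7 CPM after 1 day, and 16.5, 20.2 and 22.7 CPM after 3 days. The 1 day libraries were all below the rest, in the same order of groups as Fn1. The difference at 1 day was −0.92 (SE 0.40, edgeR adjusted p = 0.297). Between the times it was 0.85 (SE 0.365, adjusted p = 0.155), and it was called when day 1 replicate 2, the highest of its group, was left out (1.23, adjusted p = 0.0362). S100a10 went in value from 4.496 ± 0.895 CPM to 8.08 ± 2.10 CPM after 1 day, with no call (adjusted p = 0.548). S100a6, a small calcium-binding protein, was at 1.07 and 1.29 CPM in uninjured mice, 0.31, 4.81 and 2.03 CPM after 1 day, and 0.52, 0.97 and 0.89 CPM after 3 days, with the lowest and the highest library both in the 1 day group.

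In median, the 9 monocyte markers tested had log2 differences of 0.47 after 1 day, −0.57 after 3 days and −1.08 from 1 to 3 days, against 0.06, 0.00 and 0.02 over all genes tested. These medians cover only markers that passed the filter, and the 3 comparisons share libraries. F10, which passed it only through 1 day libraries where it was high, is among them. At 1 day 2 of the 9 (Vcan and F10) lay wholly above the uninjured libraries and 2 wholly below, where 14.3% and 15.0% of all genes did. The place of F10 in this count is no support for a rise, given how it passed the filter. At 3 days 1 was wholly above and 4 wholly below, against 20.1% and 19.3%.

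Among the neutrophil markers, S100a8 and Csf3r changed. S100a8 and S100a9 encode the subunits of calprotectin, the most abundant protein of the neutrophil cytosol, and Csf3r encodes the receptor for granulocyte colony-stimulating factor, which drives neutrophil production. The promoters of the 3 genes are shown because they are known targets of C/EBP and PU.1 factors in myeloid cells and because 2 of them carry the calls in this class. Each sequence runs from 250 bases before to 50 bases after the start of the gene, 5′ to 3′ on the strand of the gene, from RefSeq on GRCm38.p6. They lie at chr3:90668821-90669120 (plus strand, S100a8), chr3:90695672-90695971 (minus strand, S100a9) and chr4:126024409-126024708 (plus strand, Csf3r). Capitals mark matches, on either strand, to the C/EBP core TTNNGNAA and the PU.1 core GAGGAAG, and no 2 matches overlap.
S100a8: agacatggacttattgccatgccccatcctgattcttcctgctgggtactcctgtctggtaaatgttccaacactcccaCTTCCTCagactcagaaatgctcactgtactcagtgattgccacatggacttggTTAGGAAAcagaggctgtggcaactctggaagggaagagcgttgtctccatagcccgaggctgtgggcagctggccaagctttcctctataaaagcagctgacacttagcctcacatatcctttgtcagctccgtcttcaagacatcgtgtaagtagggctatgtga
S100a9: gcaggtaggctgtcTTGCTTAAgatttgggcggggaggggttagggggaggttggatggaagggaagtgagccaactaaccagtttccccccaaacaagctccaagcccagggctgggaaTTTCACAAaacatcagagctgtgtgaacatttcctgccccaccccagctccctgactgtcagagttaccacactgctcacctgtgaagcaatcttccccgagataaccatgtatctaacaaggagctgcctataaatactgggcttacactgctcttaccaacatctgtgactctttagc
Csf3r: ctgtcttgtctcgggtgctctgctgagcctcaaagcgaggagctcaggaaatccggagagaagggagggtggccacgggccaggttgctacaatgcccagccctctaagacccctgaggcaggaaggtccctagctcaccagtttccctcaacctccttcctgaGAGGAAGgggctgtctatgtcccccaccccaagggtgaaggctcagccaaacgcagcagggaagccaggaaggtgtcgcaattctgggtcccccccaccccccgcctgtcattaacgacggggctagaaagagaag

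S100a8 held 1 match to each core, S100a9 held 2 to the C/EBP core and Csf3r 1 to the PU.1 core. Over all 32851 promoters of the same length, 40.7% held the C/EBP core and 13.6% the PU.1 core. Promoters were found for 26 of the 28 markers, of which 15 held the first and 8 the second in at least 1 promoter. These counts are per gene and the percentages are per promoter, so they cannot be compared directly. A match describes letters only and does not show binding.

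S100a8 stood at 12.3 and 12.7 CPM in uninjured mice, 30.1, 61.6 and 16.1 CPM after 1 day, and 7.98, 9.01 and 5.41 CPM after 3 days. The groups did not overlap: all 1 day libraries were above, and all 3 day libraries below, the uninjured pair. S100a8 was lower at 3 days (7.46 ± 1.86 CPM, SD, n = 3) than at 1 day (35.9 ± 23.3 CPM, n = 3), by a log2 fold change of −2.26 (SE 0.435, edgeR adjusted p = 0.00431). This is a fold of 4.80, which became 3.10 without day 1 replicate 2 (adjusted p = 0.0145). Against uninjured mice, the log2 difference was 1.52 at 1 day (SE 0.49, adjusted p = 0.137). That value passed with DESeq2 (adjusted p = 0.0390) and in edgeR without day 1 replicate 3, the lowest of its group (1.88, adjusted p = 0.0412). At 3 days it was −0.74 (SE 0.46, adjusted p = 0.497).

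S100a9 had 18.5 and 12.5 CPM in uninjured mice, 10.98, 59.7 and 20.02 CPM after 1 day and 5.69, 17.35 and 12.99 CPM after 3 days. Day 1 replicate 2 was again the highest, but day 1 replicate 1 was below both uninjured libraries, and the groups overlapped. The difference between the times was −1.33 (SE 0.54, edgeR adjusted p = 0.129), and −1.73 (adjusted p = 0.0400) without day 1 replicate 1. The 2 subunits did not keep 1 ratio across libraries. S100a8 gave 39.9% (Clopper-Pearson 95% interval 35.8 to 44.0) and 50.4% (45.9 to 54.9) of the reads of the pair in uninjured mice. At 1 day it gave 73.2% (69.2 to 77.0), 50.8% (48.2 to 53.3) and 44.5% (40.5 to 48.7). At 3 days it gave 58.4% (51.4 to 65.1), 34.2% (29.2 to 39.4) and 29.4% (23.6 to 35.8). The share in day 1 replicate 1 lies above the intervals of all other libraries, and libraries of every group differed among themselves by more than counting error, which is all these intervals cover. RNA was amplified before sequencing, and its part in these shares was not tested.

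Per length, Csf3r had the highest mean level of these markers in each group, at 77.5, 102 and 46.2 CPM per kilobase of exon in uninjured mice, at 1 day and at 3 days. The order of the next 3 depended on the group. Fn1 was at 49.2, 21.45 and 35.5 CPM per kilobase, S100a9 at 29.7, 57.9 and 23.0, and S100a8 at 17.98, 51.8 and 10.75 in the same order of groups. At 1 day the SDs of S100a9 and S100a8 were 49.7 and 33.6, with 114 and 88.8 CPM per kilobase in day 1 replicate 2, so their order there is within the spread. Csf3r had 231 and 328 CPM in uninjured mice, 313, 413 and 379 CPM after 1 day, and 196, 157 and 147 CPM after 3 days. The 3 day libraries were below all others, while the 1 day and uninjured libraries overlapped. Csf3r fell from 368 ± 50.5 CPM after 1 day (SD, n = 3) to 167 ± 25.9 CPM after 3 days (n = 3), by 1.14 on the log2 scale (SE 0.175, edgeR adjusted p = 0.000925). Against uninjured mice (280 ± 68.2 CPM, n = 2) the log2 fold change at 3 days was −0.75 (SE 0.19, adjusted p = 0.0449). The latter call was lost when either uninjured library was left out (adjusted p = 0.0549 without replicate 1; log2 fold change −0.48 and adjusted p = 0.457 without replicate 2). It was also lost without day 1 replicate 3 (adjusted p = 0.0609) and without any 1 of the 3 day libraries (adjusted p = 0.0566, 0.0945 and 0.171 for replicates 1, 2 and 3). In the reference transcripts 10.5% of the 50-base windows of Csf3r also occur in other genes.

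Some microglia markers also fell between 1 and 3 days. Of the 13, 6 fell, 0 rose and 7 were not called, against 5.75% of all genes lower and 5.24% higher, with a median log2 fold change of −0.53. P2ry12, a nucleotide receptor of microglia, fell from 1188 ± 38.6 to 660.4 ± 37.2 CPM (−0.85, SE 0.12, edgeR adjusted p = 0.000492), and Siglech, a sialic acid receptor, by 1.09 (SE 0.16, adjusted p = 0.000573). Lyz2, the lysozyme gene of monocytes, neutrophils and microglia, fell by 1.09 (SE 0.16, adjusted p = 0.000597). Their part in the change of Csf3r was not tested. Csf3, the gene of its ligand, had 0 to 10 counts in a library and did not pass the filter.

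The other receptors were less abundant. Cxcr2, the receptor for neutrophil-attracting CXC chemokines, had 3.63 and 1.29 CPM in uninjured mice, 3.27, 3.45 and 5.05 CPM after 1 day, and 2.09, 9.01 and 2.02 CPM after 3 days. The highest value came from day 3 replicate 2, and the groups overlapped (lowest edgeR adjusted p = 0.721). Of its ligand genes, Cxcl2 was at 221 ± 6.70 CPM in uninjured mice, 375 ± 107 at 1 day (adjusted p = 0.0920) and 320 ± 55.6 at 3 days (adjusted p = 0.222). Cxcl1 was at 22.2 ± 3.84, 35.3 ± 22.7 and 47.9 ± 6.72 CPM, also with no call, and Cxcl5 had no count in 5 libraries. Il1r2, the decoy receptor for interleukin-1, had 14.1 and 17.3 CPM in uninjured mice, 5.45, 32.8 and 16.3 CPM after 1 day, and 8.63, 6.11 and 12.7 CPM after 3 days (lowest adjusted p = 0.244). Its 1 day group held both the lowest and the highest of the 8 libraries.

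Granule proteins of the late waves were detected in nearly all libraries and were not called in any comparison. Ngp, the neutrophilic granule protein, had 8.87 and 6.03 CPM in uninjured mice, 21.9, 3.77 and 5.48 CPM after 1 day, and 1.83, 6.03 and 5.41 CPM after 3 days. Camp, the cathelicidin precursor, had 1.12 and 0.46 CPM, then 2.34, 0.72 and 0.25 CPM, and then 0, 1.27 and 0.65 CPM. For both genes day 1 replicate 1 was the highest of the 8 libraries and day 3 replicate 1 the lowest. Ltf, the iron-binding lactoferrin, was at 2.14 and 0.46 CPM in uninjured mice, 6.85, 7.70 and 3.08 CPM after 1 day, and 0.85, 5.36 and 0.89 CPM after 3 days. Its 1 day libraries were all above the uninjured pair, with a log2 difference of 2.17 (SE 1.01, unadjusted p = 0.0490, edgeR adjusted p = 0.336).

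Lcn2, the siderophore-binding lipocalin that reactive astrocytes also make, had 5.77 and 5.31 CPM in uninjured mice, 5.92, 11.4 and 3.70 CPM after 1 day, and 2.29, 5.51 and 8.15 CPM after 3 days. Mmp8, the neutrophil collagenase, had 1.39 and 1.34 CPM, then 2.57, 1.525 and 2.46 CPM, and then 1.05, 2.085 and 1.53 CPM. Mmp9, a gelatinase, had 3.90 and 1.49 CPM, then 1.71, 3.29 and 3.265 CPM, and then 2.94, 2.23 and 5.002 CPM. The highest adjusted p of these 3 genes was 0.994 and the lowest 0.724, and their groups overlapped apart from Mmp8, whose 1 day libraries were all above the uninjured pair. Retnlg, a resistin-like protein of mature neutrophils, had 3.31 and 4.17 CPM in uninjured mice, 0.62, 10.9 and 6.96 CPM after 1 day, and 2.22, 1.79 and 2.58 CPM after 3 days. Day 1 replicate 1, the highest library for Ngp, was the lowest of all for Retnlg. Without that library, 3 more neutrophil markers were called as lower at 3 days than at 1 day: S100a9, Retnlg and Il1r2. It was the lowest 1 day library for each of them. The log2 differences were −1.73 for S100a9 (edgeR adjusted p = 0.0400), −2.02 for Retnlg (adjusted p = 0.0380) and −1.43 for Il1r2 (adjusted p = 0.0435). S100a8 and Csf3r were called with and without it. Over all genes, 767 were called as lower and 664 as higher in this setting, against 1000 and 912 with all libraries.

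Genes of early granulocyte stages, and the neutrophil surface genes Cd177 and Ly6g, were at or near 0. Elane, neutrophil elastase, had 23 counts, of which 20 were in uninjured replicate 2 and none in the 1 day libraries. Mpo, myeloperoxidase, had 34 counts, of which 21 were in the same uninjured library and 11 in day 1 replicate 3. Cd177, a surface protein of a subset of neutrophils, lay between 0.07 and 1.23 CPM. Ly6g, which defines mouse neutrophils, had 13 counts over the 8 libraries, 11 of them in day 1 replicate 3, and none in 5 libraries. Of further genes of granulocyte development, Prtn3 had 3 counts, Cebpe 10 and Gfi1 2.

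**Figure D4:**
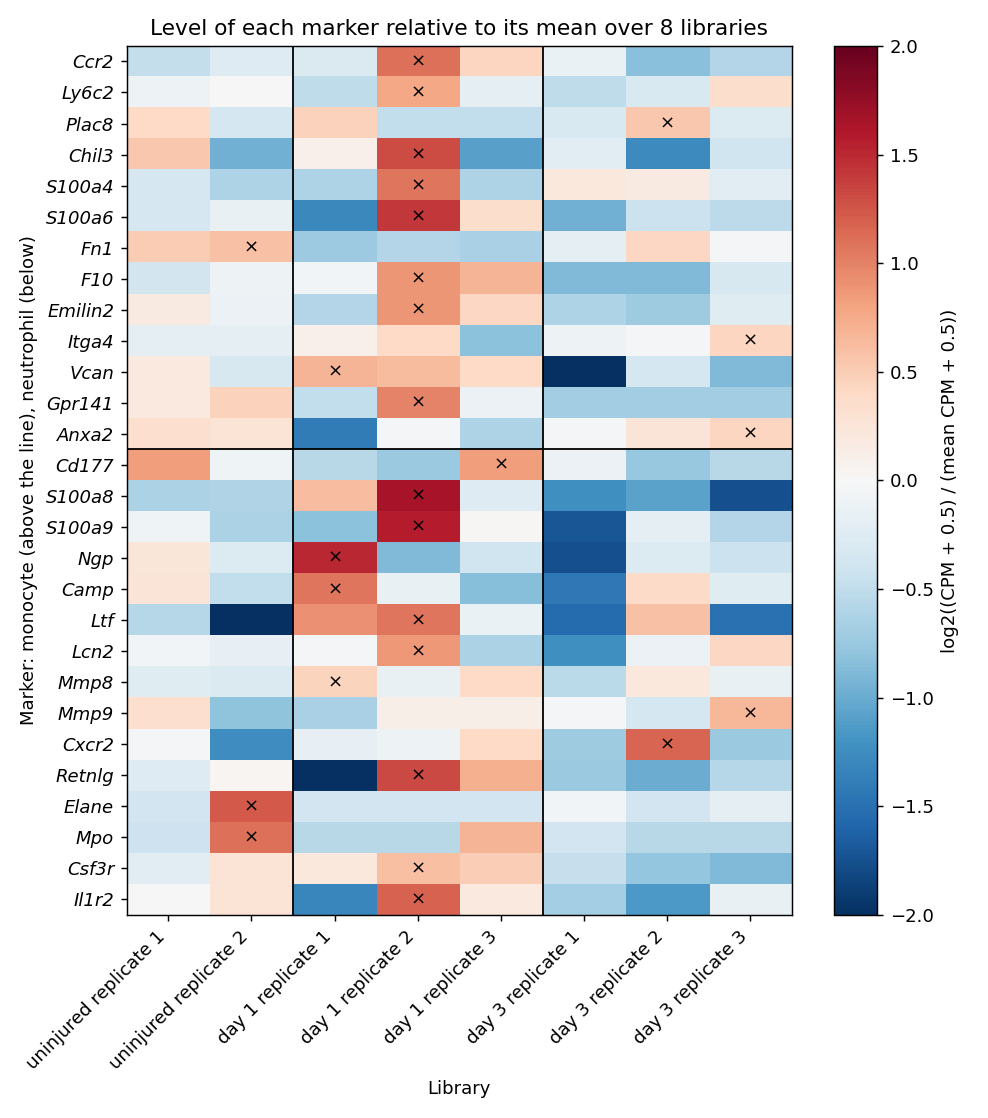
Level of each marker in each library relative to its mean over the 8 libraries, as log2((CPM + 0.5) / (mean CPM + 0.5)), with red above and blue below the mean; a cross marks the highest library of each gene, and lines part the groups and the 2 classes. Of the 28 crosses, 15 lie in day 1 replicate 2 and 4 in day 1 replicate 1, where those of Ngp, Camp and Mmp8 are found.

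Without Csf3r, which gave 67.7% to 84.4% of the summed level, the other 14 neutrophil markers summed to 76.3 and 65.5 CPM in uninjured mice, 91.8, 197 and 84.6 CPM after 1 day, and 36.2, 65.8 and 57.5 CPM after 3 days. The 1 day libraries were above both uninjured ones, with day 1 replicate 2 far above the rest, and 3 days overlapped with uninjured. The 14 neutrophil markers tested had median log2 differences of 0.47 after 1 day, −0.56 after 3 days and −1.17 from 1 to 3 days. At 1 day 3 of the 14 lay wholly above the uninjured libraries and 0 wholly below, against 14.3% and 15.0% of all genes. At 3 days 0 were wholly above and 5 wholly below, against 20.1% and 19.3%. From 1 to 3 days 2 monocyte markers lay wholly above and 2 wholly below, and 0 and 2 neutrophil markers, against 16.1% and 13.6%. The monocyte markers below include F10, which passed the filter only through 1 day libraries.

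Further genes of the 2 cell types were taken from wider lists. Of 28 other monocyte genes tested, 1 fell at 1 day (1.16% of all genes did), and at 3 days 1 rose and 1 fell (2.49% and 0.983%). The gene that fell in both was Ahnak, a large scaffold protein (827 ± 119, 523 ± 76.4 and 537 ± 40.01 CPM in uninjured mice, at 1 day and at 3 days, edgeR adjusted p = 0.0498 and 0.0449). Tagln2, an actin-binding protein, rose from 50.4 ± 16.7 to 142 ± 12.8 CPM after 3 days (adjusted p = 0.00249). Lgals3, the galectin of activated macrophages, was at 44.1 ± 0.505 CPM in uninjured mice and rose from 31.4 ± 13 to 88.8 ± 18.7 CPM between the times (adjusted p = 0.00331), where 4 of the list rose and 1 fell (5.24% and 5.75% of all genes). Of 19 other neutrophil genes tested, 0 were called at 1 day and 0 at 3 days by edgeR. At an unadjusted p under 0.05 there were 5 and 7, against 2569 and 2749 of all 17390 genes tested. At 1 day 3 of the 19 lay wholly above the uninjured libraries and 5 wholly below, against 14.3% and 15.0% of all genes. At 3 days 0 lay wholly above and 9 wholly below, against 20.1% and 19.3%. The median log2 differences were 0.115 at 1 day and −0.983 at 3 days. Between the times 2 fell, Lyz2 and Slpi (5.75% of all genes did). Lyz2 is on both wider lists, and is also the gene that fell among the other monocyte genes. Slpi, a protease inhibitor, had 0.93 ± 0.366 CPM after 1 day and no count at 3 days (adjusted p = 0.0498). Slpi had 11 counts in the uninjured pair and 40 over the 1 day libraries, and passed the filter only through the latter. Its call, and its place wholly above the uninjured libraries at 1 day, therefore carry little weight.

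Of 15 genes tested that guide leukocytes into tissue, 1 rose, 2 fell and 12 were not called at 1 day, against 0.610% of all genes higher and 1.16% lower. Icam1, an adhesion molecule of endothelium and of activated microglia, went up by 0.83 on the log2 scale, from 422 ± 51.1 to 749 ± 114 CPM (SE 0.17, edgeR adjusted p = 0.0238). Selp, the P-selectin on which leukocytes roll, fell from 26.6 and 4.43 CPM in the uninjured pair, which lay far apart, to 0.156, 1.525 and 0.0616 CPM (adjusted p = 0.0259). Cxcl12, a chemokine of vessel cells, fell from 119 ± 5.44 to 36.0 ± 12.6 CPM (adjusted p = 0.00301). Selp and Cxcl12 rose again between 1 and 3 days (adjusted p = 0.0205 and 0.00131), as did 6 of the 10 endothelial markers (5.24% of all genes did). Among the homing receptors, Itga5 rose at both times against uninjured mice, and Itgb2, Itgb7 and Itga5 were among those that fell from 1 to 3 days. Itgb2, the beta 2 integrin that pairs with CD11b, went from 582 ± 45.6 to 365.9 ± 38.7 CPM (adjusted p = 0.00626).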

How the data were processed

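RNA was extracted with a micro-scale kit and linearly amplified before library preparation, per the labels' protocols. The authors deposited unnormalized counts of reads for each Ensembl gene. The submitters' processing notes name FastQC, STAR, HTSeq and the build mm9. Their versions, the annotation and the strand use were not given in any source used here. Of 26062 identifiers, 25925 matched a symbol in GENCODE M21, which also gave exon lengths, overlaps and shared 50-base windows. Its build differs from mm9, so the only coordinates given are those of the RefSeq promoters (GRCm38.p6), not of the counted reads.

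Tests used edgeR 4.0.16 (R 4.3.3) with its filterByExpr rule by group, which left 17390 genes, TMM scaling and 1 robust quasi-likelihood fit over all 8 libraries. P-values were adjusted by Benjamini-Hochberg over all tested genes, with calls under 0.05; standard errors are the fold change divided by the square root of F. The procedure was also run on simulated counts, with changes planted only in genes above a minimum expected count. The outcome of that run is not reported here, and it does not cover the scarcest markers. No 2 libraries of a group agreed within sampling noise (chi-square per degree of freedom 31.4 to 64.8). Alternatives were DESeq2 1.42.0, limma-voom (limma 3.58.1), other scaling, filters and samples, a replicate block and each library left out. All 28 markers found are accounted for, with each library's value at a group mean of at least 1 CPM; from other lists up to 4 genes with the smallest p per comparison are named, beside ligands, partners and defining markers chosen after their values were seen. The members and lists were chosen with earlier results of these data known.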

Additional observations from a re-analysis of the deposited data

How the results depend on the processing

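The changes of Fn1 at 1 day and between the times, and of S100a8 and Csf3r between the times, kept direction and call in all 16 alternatives run. The fall of Csf3r at 3 days against uninjured mice kept direction in all 16 and its call in 9. With the replicate number as a block it was lost (log2 fold change −0.70, adjusted p = 0.0971), so that 0 neutrophil markers were called at 3 days; the block changed no other count of called markers. Libraries with the same number did not deviate together (r from −0.07 to 0.09 over 7 pairs). The deviations of the 2 uninjured libraries mirror each other, and a low r cannot exclude a shared day or batch. Whether the numbers pair libraries is therefore not known. DESeq2 called 1 neutrophil marker at 1 day and 2 monocyte markers between the times, and limma-voom also called 2 of the latter; the cause was not tested. With each library left out, the called markers numbered 1 monocyte and 0 to 1 neutrophil at 1 day, 0 to 1 and 0 to 1 at 3 days, and 1 to 2 and 2 to 5 between the times. Over all genes, calls ranged from 39 (without uninjured replicate 1) to 909 (DESeq2) around 308 at 1 day, 108 to 1375 around 604 at 3 days, and 747 (without day 3 replicate 3) to 3120 around 1912 between the times. How large a difference could have been called in each marker was not tested; the biological coefficient of variation was 51.1% and a group held 2 or 3 libraries.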
